A study of Homo sapiens with 8 samples.

Results

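The DNA replication machinery was described through 52 genes, chosen by name for their parts in marking origins, unwinding DNA, copying it and keeping replication forks intact, out of the 18053 gene names of a genome-wide knockout screen. Of the 52 genes, 51 were in the count table and all 51 were tested, and PRIM2, a primase subunit, was not analysed here. They held 204 guides, of which 198 passed the filter on low counts. The filter took 1 guide each from CDC6, MCM5, POLA2, PRIM1, POLD2 and CHAF1B, which were left with 3 guides, and the other members kept 4. For POLD2 the guide left out had 94 and 89 reads at T0 and between 18 and 40 reads in the other 6 libraries.

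PC9 is a line from non-small cell lung cancer that carries an activating deletion in EGFR, and here it expressed Cas9 and received TKOv3, a pooled library of single guide RNAs. All groups therefore carried Cas9, a guide and the puromycin selection that followed infection. The 4 groups, with 2 libraries each, were cells harvested when the drugs went on (T0), a DMSO arm (untreated), an arm in 10 µM erlotinib and an arm in 0.1 µM osimertinib, the last 3 collected after 72 h. Erlotinib and osimertinib both inhibit the EGFR kinase. A guide's share of the reads reflects how common its knockout is in a mixed population, so slower division and death of a knockout cannot be told apart from its read counts. According to the methods, the DMSO arm alone was passaged, on day 1, and live cells were taken from every arm. Infection was done in duplicate per the labels, with nothing on whether both cultures of an arm stayed separate, so p-values measure the spread between these libraries, part of which may be technical.

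Replication starts where the origin recognition complex (ORC) sits on DNA and, with CDC6 and CDT1, loads the MCM helicase before S phase. The kinase CDC7 with DBF4, together with TOPBP1, MCM10, CDC45 and the GINS complex, turns the loaded helicase into a moving fork, and polymerase alpha-primase, polymerases delta and epsilon, the sliding clamp PCNA and its loader RFC then copy the strands while replication protein A coats single-stranded DNA. Every dividing cell needs this work to be done, and for that reason such genes are commonly used as core essential genes in knockout screens.

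Many genes of this machinery are known targets of E2F transcription factors, and the promoters of the members were searched for 4 forms of the E2F site, TTTCGCGC, TTTGGCGC, TTTCCCGC and TTTGCCGC, on both strands, and a promoter was counted once however many matches it held. Promoters of 300 bases from RefSeq (GRCh38.p14) were at hand for 46 of the 52 members, and MCM4, MCM5, GINS4, POLD3, RPA2 and RPA3 had no entry. At least 1 of these motifs was present in 19 of the 46 promoters (41.3%), against 908 of 27305 promoters of all genes in the RefSeq promoter set (3.33%). That set was not limited to the genes of the screen. A match describes the letters of this window and does not show that a factor binds there. Knockouts of GINS2 and RFC3 were lost most without drug. CDT1 was the member called lower against untreated cells under both drugs, and it was not called in untreated cells against T0. For these reasons the promoters of GINS2, RFC3 and CDT1 are shown. They lie at chr16:85688905-85689204 on the minus strand (GINS2), chr13:33817899-33818198 on the plus strand (RFC3) and chr16:88803539-88803838 on the plus strand (CDT1), each 5′ to 3′ with the motif in capitals.
GINS2: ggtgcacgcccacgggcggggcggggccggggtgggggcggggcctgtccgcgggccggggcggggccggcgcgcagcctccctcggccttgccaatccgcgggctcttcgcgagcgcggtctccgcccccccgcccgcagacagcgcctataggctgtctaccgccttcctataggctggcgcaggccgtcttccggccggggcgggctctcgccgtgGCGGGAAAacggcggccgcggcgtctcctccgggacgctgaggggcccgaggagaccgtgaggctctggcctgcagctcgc
RFC3: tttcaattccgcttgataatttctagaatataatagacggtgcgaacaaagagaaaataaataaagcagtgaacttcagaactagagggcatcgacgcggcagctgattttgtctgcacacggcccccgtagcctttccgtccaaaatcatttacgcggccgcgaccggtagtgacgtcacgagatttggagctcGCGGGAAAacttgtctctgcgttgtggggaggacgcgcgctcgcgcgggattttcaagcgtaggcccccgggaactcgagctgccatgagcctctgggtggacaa
CDT1: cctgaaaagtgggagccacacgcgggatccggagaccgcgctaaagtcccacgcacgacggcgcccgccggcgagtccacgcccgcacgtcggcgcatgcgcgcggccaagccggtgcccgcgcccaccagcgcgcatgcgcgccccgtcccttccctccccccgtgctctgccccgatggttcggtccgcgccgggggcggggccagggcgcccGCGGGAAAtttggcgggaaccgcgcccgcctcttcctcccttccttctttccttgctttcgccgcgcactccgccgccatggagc
In GINS2 the motif began 31 bases before the annotated start, in RFC3 55 bases before it and in CDT1 35 bases before it.

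Values are given as levels and as L2FC. The level of a gene in a library is the median over its guides of the log2 share of reads, relative to the non-targeting guides of that library and to the mean of both T0 libraries, and L2FC is the difference between the mean levels of 2 groups. Where L2FC is negative, knockout cells became rarer relative to cells whose guide has no target. Errors are standard errors (SE) of a limma fit over all 8 libraries, with adjusted p-values over all 17760 genes tested and a threshold of 0.05.

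Libraries held between 32096281 and 39200466 reads, with a median of 445 to 549 reads per guide. At that median, counting error alone gives a single guide a 95% interval of ±0.121 to ±0.134 on the log2 scale, and since PCR copies are not independent molecules this covers counting error only. The SD between the libraries of a group was 0.0899 to 0.106 for the levels of the members, against 0.0653 to 0.0887 for all genes. Guides against most genes were lost relative to non-targeting guides: in untreated cells against T0, the median L2FC was -0.16 for all genes and -0.12 for 327 olfactory receptor genes, and changes of replication genes from T0 are to be read relative to that shift.

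Gene essentiality was measured as the change from T0 to untreated cells. By the methods, T0 came after puromycin selection and days of recovery from infection, so knockouts lost before T0 are not counted here. A small change from T0 therefore does not show that cells can do without a gene, and loss before T0 was not tested. Knockouts of 44 of the 51 replication genes fell over 72 h and 0 rose, where 46.3% of all genes tested were called lower and 0.0338% higher. At an unadjusted p under 0.05 these counts were 46 and 0, and edgeR and DESeq2 on summed counts also called 0 members higher. Across the 51 members the median L2FC was -0.61, with an SD of 0.37 from gene to gene, and over all genes it was -0.16. With the median of all genes as reference in place of the non-targeting guides, 36 of the 51 members were called lower, against 9.98% of all genes.

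Among the proteins that mark origins, 5 of the 6 ORC genes fell, from ORC6 (-0.79 ± 0.067 SE) to ORC3 (-0.23 ± 0.066), and ORC4 was at -0.13 (adjusted p = 0.122). The up to 10 tested genes on each side of ORC3 had a median of -0.14. Those around ORC1, itself at -0.28, were at -0.25. No single guide of ORC1 or ORC3 was called lower in the edgeR test of guides given below. Of the licensing genes, GMNN, which encodes geminin, the inhibitor of CDT1, fell by 0.55, and CDC6 fell by 0.47. All 6 genes of the MCM helicase fell, from MCM5 (-1.15) to MCM3 (-0.57), with a median of -0.90. All 9 genes of helicase activation fell, with the GINS subunit GINS2 lowest (-1.47) and MCM10 highest (-0.44).

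In the polymerase alpha-primase complex, the 3 tested genes fell, from the catalytic primase subunit PRIM1 (-0.94) to the catalytic polymerase subunit POLA1 (-0.28). Of the polymerase delta and epsilon genes, 4 of 5 fell, with the accessory subunit POLD3 lowest (-0.96), and POLD1, the catalytic subunit of polymerase delta, was at -0.18 (adjusted p = 0.0578). The clamp PCNA (-1.12) and 4 of the 5 clamp loader genes fell, with RFC3 lowest (-1.43). All 3 subunits of replication protein A fell, from RPA3 (-0.94) to RPA1 (-0.31). All 4 genes of fork protection fell, from TIMELESS (-1.04) to the checkpoint mediator CLSPN (-0.20), as did both genes of the histone chaperone chromatin assembly factor 1, CHAF1B (-0.89) and CHAF1A (-0.55). Of the ribonucleotide reductase genes, which supply deoxynucleotides, RRM1 fell by 0.23.

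**Figure D1:**
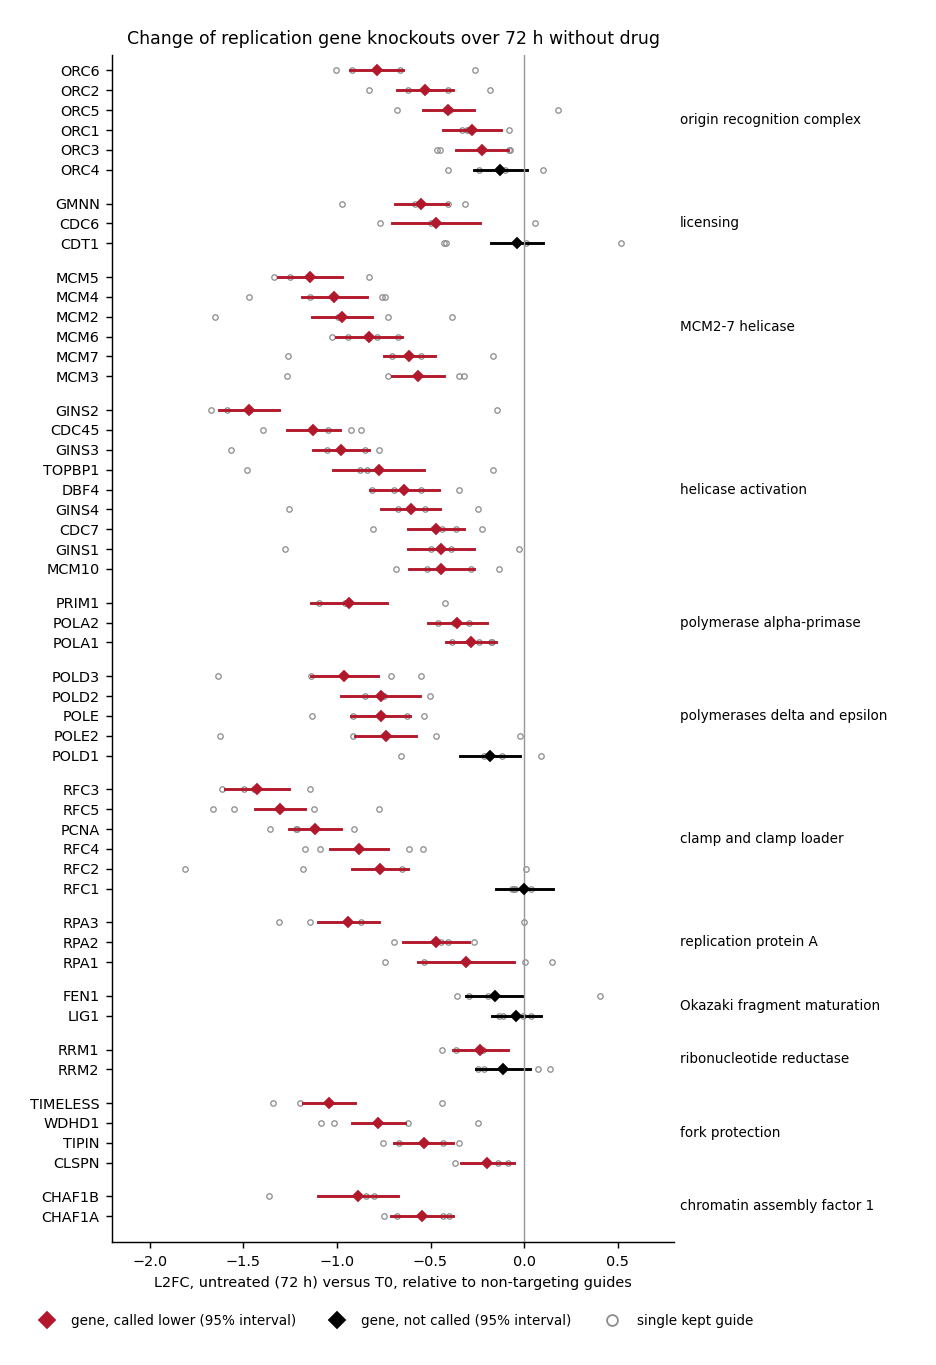
L2FC of each replication gene knockout, untreated versus T0, relative to non-targeting guides (x axis, log2), with genes grouped by role (y axis). Diamonds are genes with the 95% interval of the limma fit, red for the 44 called lower and black for the 7 not called, and open circles are single guides. Most diamonds lie between -1.47 and -0.20, while RFC1 and its 4 guides sit at 0.

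The largest losses were those of GINS2, RFC3 and RFC5. Levels of GINS2 were -1.46 and -1.48 in the untreated libraries, against 0.015 and -0.015 at T0, which left 36.1% of the T0 abundance relative to non-targeting guides (L2FC -1.47 ± 0.076 SE, limma adjusted p = 2.42e-10, n = 2 libraries per group). Levels of RFC3 in untreated cells were -1.57 and -1.29 (-1.43 ± 0.081, adjusted p = 5.26e-10), with T0 at 0.044 and -0.044. Levels of RFC5 in untreated cells were -1.32 and -1.29 (-1.30 ± 0.063, adjusted p = 1.75e-10), with T0 at 0.013 and -0.013. For all 3 genes, both untreated libraries lay far below both T0 libraries. Counted from the most depleted of the 17760 genes, GINS2 was at rank 33, RFC3 at rank 42 and RFC5 at rank 99. MCM5, CDC45, PCNA, TIMELESS and MCM4 followed, with L2FC from -1.15 to -1.01.

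Knockouts of 7 members were not called: ORC4, CDT1, POLD1, RFC1, FEN1, LIG1 and RRM2. RFC1 is the large subunit of the clamp loader whose other subunits were all lost. Its levels were -0.05 and 0.052 in untreated cells and 0.056 and -0.056 at T0, so that the groups overlapped (L2FC 0.0011, 95% interval -0.15 to 0.15, adjusted p = 0.99). The interval of RFC1 lay apart from that of RFC2, the least depleted of the other 4 loader genes (-0.77, interval -0.92 to -0.62). These intervals measure the spread between libraries and not between guides, and the 3rd guide of RFC2 was at 0.0096. LIG1, the ligase that joins Okazaki fragments, was at -0.042 (interval -0.17 to 0.089), and FEN1, the nuclease that trims them, was at -0.16 (interval -0.31 to -0.0043, adjusted p = 0.0819). CDT1 was at -0.037 (interval -0.17 to 0.10) and RRM2, the regulatory subunit of ribonucleotide reductase, at -0.11 (interval -0.26 to 0.030).

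Single guides were tested with edgeR, which scales libraries on all guides. The guide L2FC printed are relative to non-targeting guides, on the scale of the gene values, while the edgeR p beside one tests the difference scaled on all guides, so that a guide can pass as higher at a printed L2FC not far above 0. Of the 198 guides of replication genes, 89 were called lower and 3 higher, against 5.93% and 1.19% of all targeting guides. Every kept guide was called lower for 10 members (CDC45, CHAF1B, GINS3, MCM4, MCM5, MCM6, PCNA, POLE, RFC3 and RFC5), named here after their values were seen. No guide was called lower for 14 members, 8 of which were called lower as genes. For RFC3, read counts of its 4 guides were 328 and 393, 221 and 230, 254 and 247, and 528 and 523 at T0. In untreated cells these guides had 147 and 206, 100 and 78, 75 and 120, and 166 and 204 reads. All 4 guides of RFC3 were thus lost to a like extent, with guide L2FC from -1.61 to -1.14.

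In other members the guides disagreed. The SD between guides was largest for RFC2 (0.77), GINS2 (0.72), POLE2 (0.68), RPA3 (0.58) and TOPBP1 (0.54). Guides of RFC2 were at -0.65, -1.18, 0.0096 and -1.81. Guides of GINS2 were at -1.59, -1.67, -1.47 and -0.15. The 4th guide of GINS2 had 504 and 523 reads at T0 and 461 and 539 in untreated cells, while its 1st guide went from 623 and 690 reads to 220 and 249. Guides of POLE2, a subunit of polymerase epsilon, were at -1.62, -0.47, -0.024 and -0.91, and those of TOPBP1, which helps to fire origins, at -0.88, -1.48, -0.17 and -0.84. Guides of RPA3 were at -0.87, -1.31, -0.00097 and -1.14. The guide of RPA3 without a loss was also its most abundant, with 524 and 540 reads at T0 where the other 3 guides had between 96 and 158. GINS2 and RPA3 thus had 1 guide near 0 apart from the other 3, while the guides of RFC2, POLE2 and TOPBP1 were spread out, and the gene value is the median of guides that did not act alike.

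**Figure D2:**
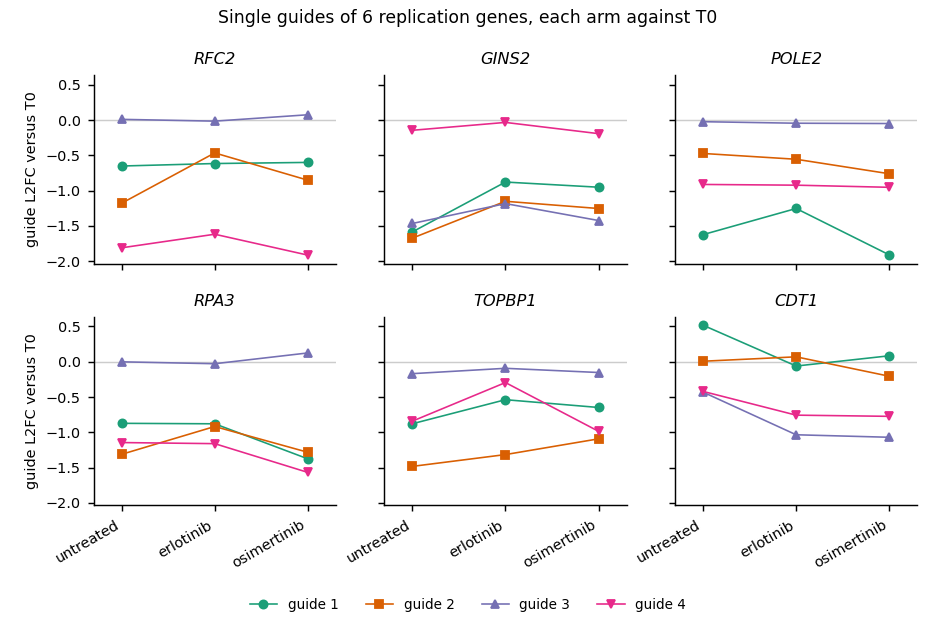
L2FC of single guides against T0 (y axis, log2, relative to non-targeting guides) in untreated, erlotinib and osimertinib cells (x axis) for the 5 members with the largest SD between guides and for CDT1, with 1 line and marker for each guide. In RFC2, GINS2, POLE2, RPA3 and TOPBP1 the guide nearest to 0 in untreated cells, between -0.17 and 0.0096, stayed near 0 in all arms.

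CDT1 had guides on both sides of 0. Its 1st guide rose from 176 and 169 reads at T0 to 247 and 286 reads in untreated cells (guide L2FC 0.52, edgeR adjusted p = 0.00691), its 2nd guide was at 0.0073, and its 3rd and 4th guides were at -0.43 and -0.42. The other 2 guides called higher were the 4th guide of FEN1 (0.41, edgeR adjusted p = 0.00724) and the 1st guide of ORC5 (0.18, edgeR adjusted p = 0.0458). The 1st guide of ORC5 had 484 and 498 reads at T0 and 584 and 610 in untreated cells, while its other 3 guides were between -0.68 and -0.39. FEN1 and CDT1 were thus not called as genes while a guide of each was called higher.

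Outside the members, 55 further genes of DNA replication were tested, covering other origin factors, checkpoint kinases, nucleotide supply, topoisomerases, cyclins and histone supply at forks. Of these, 42 fell (76.4%) and 1 rose (1.82%) in untreated cells against T0, where 46.3% and 0.0338% of all genes were called, with a median of -0.36. The largest losses were those of TONSL (-1.32), a histone reader at forks, DUT (-1.28), which removes dUTP, SUPT16H (-1.05) and SSRP1 (-1.05), both subunits of the histone chaperone FACT, DTYMK (-0.98), which makes dTDP, and the kinase CDK1 (-0.89). CLSPN was lost no more than its surroundings: the up to 10 tested genes on each side of it had a median of -0.33, and relative to them CLSPN was at 0.13. Relative to all genes, 36 members were called lower in place of 44, and the calls lost included POLA1, RPA1 and RRM1, at -0.12, -0.14 and -0.066. The call of RPA1 passed in 5 of 18 alternative settings (-0.16 without T0 replicate 1 and -0.19 without untreated replicate 2). RPA3 lost its call on summed counts with edgeR and TMM (-0.18, adjusted p = 0.185) and with DESeq2 (-0.19, adjusted p = 0.245).

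Each drug was then set against untreated cells, which the study calls the conventional measure. The study cautions that a positive L2FC here can mean resistance to the drug. By its account it can also mean slow growth of the knockout without drug, with an unaltered drug response. Which of these applied to the members was not tested. Both drug comparisons share the 2 untreated libraries, so they are not independent of each other or of the comparison of untreated cells with T0. Under erlotinib, knockouts of 10 of the 51 members rose and 1 fell, where 4.88% of all genes tested were called higher and 2.25% lower. The share of members called higher was 19.6%. The median L2FC of the members was 0.11 ± 0.19 (SD between genes), against 0.017 for all genes. The genes that rose were GINS2, RFC3, MCM6, CHAF1B, ORC5, RFC5, ORC2, PCNA, RFC4 and ORC6, all of which had fallen in untreated cells, and the gene that fell was CDT1.

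By role, 4 of the 6 clamp and clamp loader genes and 3 of the 6 ORC genes rose under erlotinib. Levels of RFC3 were -0.90 and -0.96 under erlotinib, above -1.57 and -1.29 in untreated cells without overlap (L2FC 0.50 ± 0.081 SE, limma adjusted p = 0.000759). Levels of RFC5 were -0.92 and -0.95 under erlotinib, against -1.32 and -1.29 in untreated cells (0.37 ± 0.063, adjusted p = 0.00128). For PCNA they were -0.77 and -0.84 against -1.15 and -1.08 (0.31 ± 0.065, adjusted p = 0.00617). Knockout cells of these clamp genes were still rarer than at T0 in every erlotinib library.

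ORC5 differed from the clamp genes in that its erlotinib libraries lay at the T0 level. Its levels were -0.033 and 0.025 under erlotinib, against -0.43 and -0.38 in untreated cells (L2FC 0.40 ± 0.065 SE, limma adjusted p = 0.000759). The 3 guides of ORC5 that were lost without drug each rose, at 0.50, 0.40 and 0.52, and the 1st guide was at -0.074. Levels of ORC2 were -0.26 and -0.16 under erlotinib and -0.55 and -0.51 in untreated cells (0.32 ± 0.071, adjusted p = 0.0101).

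GINS2 had levels of -1.09 and -0.84 under erlotinib, above its untreated levels (L2FC 0.50 ± 0.076 SE, limma adjusted p = 0.000367). MCM6, a subunit of the helicase ring, had levels of -0.41 and -0.34 under erlotinib, with the untreated libraries apart from each other at -0.67 and -0.99 (0.45 ± 0.084, adjusted p = 0.0025). CHAF1B, the middle subunit of chromatin assembly factor 1, had levels of -0.34 and -0.57 against -0.997 and -0.776 (0.43 ± 0.10, adjusted p = 0.0142). The groups did not overlap in these 3 genes. RFC4 (0.25, adjusted p = 0.048) and ORC6 (0.23, adjusted p = 0.0456) passed the threshold narrowly.

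CDT1, which brings the MCM helicase to origins, moved the other way. Its levels were -0.41 and -0.37 under erlotinib and 0.010 and -0.085 in untreated cells, without overlap (L2FC -0.35 ± 0.065 SE, limma adjusted p = 0.00241). Its guides were at -0.58, 0.063, -0.60 and -0.34 under erlotinib, none of which passed the edgeR test on its own, and the 3rd guide had at most 87 reads in any library. Of the 198 guides of the members, 14 were called higher and 0 lower under erlotinib, against 1.76% and 1.05% of all targeting guides. The 14 guides were spread over ORC2, ORC3, ORC4, ORC5 (3 guides), MCM6, GINS2 (2 guides), GINS3, POLD3, PCNA, RFC2 and RFC5. At an unadjusted p under 0.05 edgeR gave 41 higher and 7 lower, and DESeq2 called 7 higher and 0 lower. The shares of all targeting guides given above are for adjusted edgeR calls. They are no background for these further counts, which were not set against all guides.

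The calls of GINS2, RFC3, ORC5 and RFC5 under erlotinib passed the threshold in all 18 alternative settings. Without untreated replicate 1 the calls of CDT1 (-0.29, adjusted p = 0.0576), CHAF1B (0.27), ORC2 (0.28) and PCNA (0.28) were lost, without untreated replicate 2 that of MCM6 (0.27, adjusted p = 0.0972), without erlotinib replicate 1 those of CHAF1B (0.35) and PCNA (0.28), and without erlotinib replicate 2 those of MCM6 (0.39) and ORC2 (0.26), while RFC4 and ORC6 kept their calls in 7 and 4 of the 18 settings. CDT1 also lost its call on summed counts with edgeR scaled on non-targeting guides (-0.26, adjusted p = 0.0701) and with DESeq2 (-0.28, adjusted p = 0.0705), and ORC2 relative to its neighbours (0.22, adjusted p = 0.09).

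**Figure D3:**
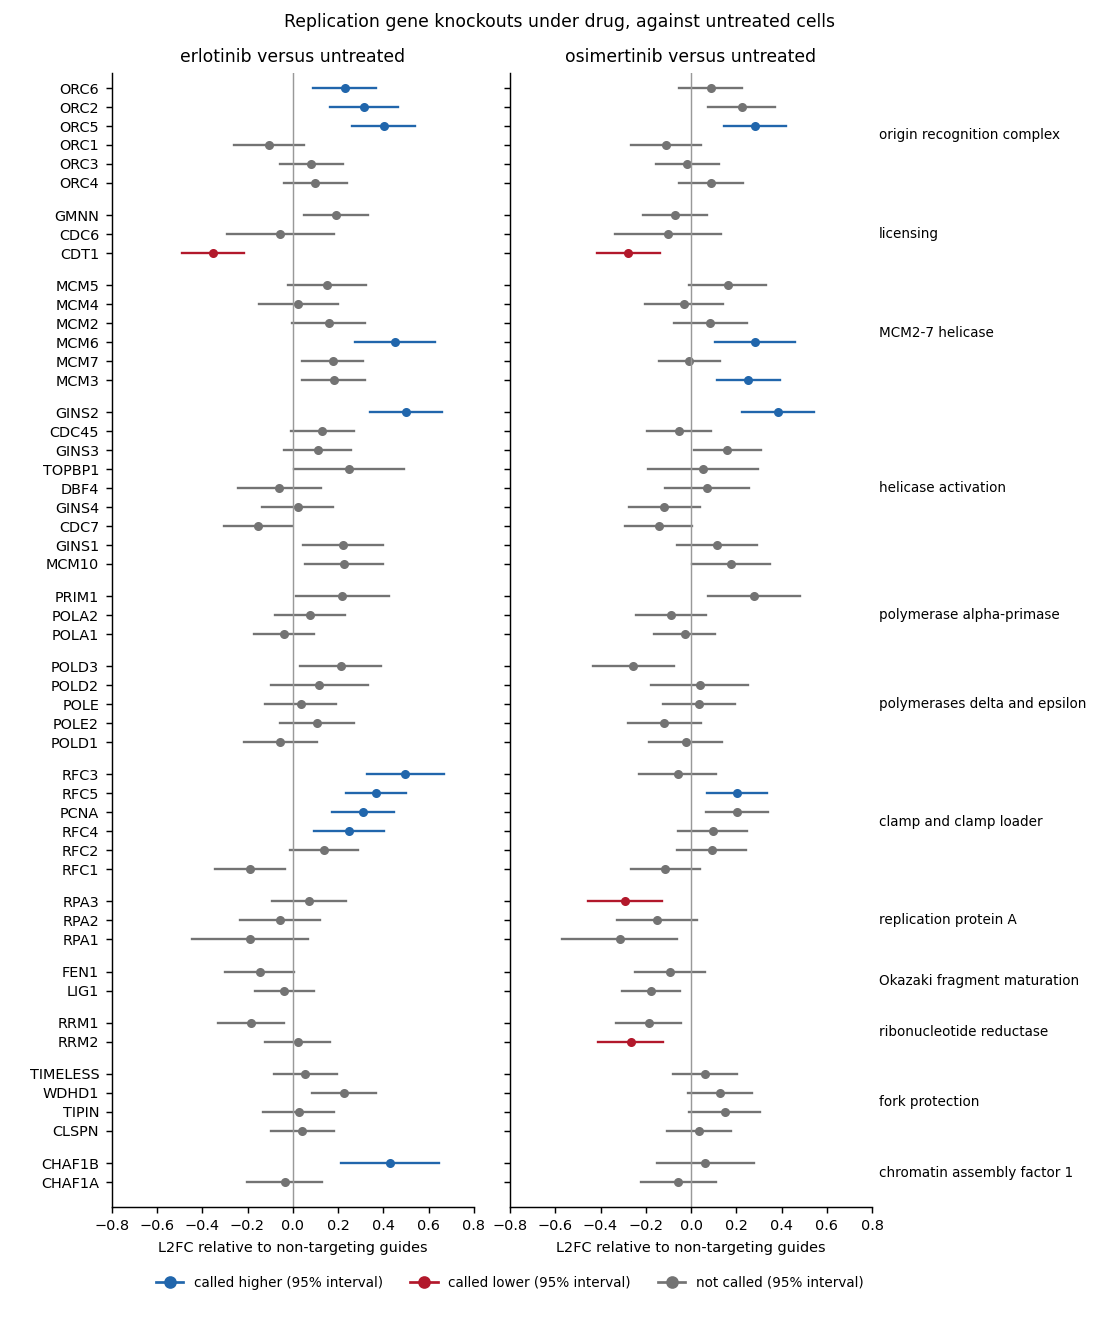
L2FC of each replication gene knockout under erlotinib (left) and osimertinib (right) against untreated cells (x axis, log2, relative to non-targeting guides), with genes grouped by role (y axis). Points are genes with the 95% interval of the limma fit, blue where called higher, red where called lower and grey where not called. Under erlotinib 10 members are blue, 4 of them in the clamp and clamp loader group, and CDT1 is red in both panels.

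Under osimertinib, knockouts of 5 members rose (GINS2, ORC5, MCM6, MCM3 and RFC5) and 3 fell (RPA3, CDT1 and RRM2). In all, 5.31% of all genes tested were called higher and 4.83% lower, and the shares of the members were 9.8% and 5.88%, little above the background. The median L2FC of the members was 0.035 ± 0.17 (SD between genes), against 0.013 for all genes. At the guide level 5 of the 198 guides were called higher and 1 lower, against 2.41% and 2.33% of all targeting guides.

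Levels of GINS2 were -1.08 and -1.10 under osimertinib, above -1.46 and -1.48 in untreated cells (L2FC 0.38 ± 0.076 SE, limma adjusted p = 0.00361). Its 1st guide, with 378 and 367 reads against 220 and 249, was called higher on its own (0.63, edgeR adjusted p = 0.00302). Levels of ORC5 were -0.076 and -0.17 under osimertinib (0.28 ± 0.065, limma adjusted p = 0.0104). MCM3, a subunit of the helicase ring, had levels of -0.27 and -0.36 against -0.54 and -0.60 (0.25 ± 0.066, adjusted p = 0.0215). The drug and untreated libraries did not overlap in these 3 genes.

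Levels of CDT1 were -0.34 and -0.29 under osimertinib, below both untreated libraries (L2FC -0.28 ± 0.065 SE, limma adjusted p = 0.012). RRM2, the regulatory subunit of ribonucleotide reductase, was near its T0 level without drug, at -0.098 and -0.13, and had levels of -0.37 and -0.39 under osimertinib (-0.27 ± 0.068, adjusted p = 0.0184). The guides of RRM2 were at 0.18, -0.36, -0.78 and -0.20, and none passed the edgeR test. RPA3, the smallest subunit of replication protein A, had levels of -1.21 and -1.25 under osimertinib against -0.97 and -0.91 (-0.29 ± 0.077, adjusted p = 0.0228). Its guides were at -0.50, 0.029, 0.13 and -0.42, and when the reads of all its guides were summed, the value was 0.034 (edgeR, scaled on non-targeting guides) or 0.023 (edgeR with TMM, and DESeq2). The summed value is dominated by the 3rd guide, with 660 and 617 reads under osimertinib where the other 3 guides had between 39 and 61.

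None of the 8 osimertinib calls passed in all 18 alternative settings. GINS2 lost its call with DESeq2 alone (0.20, adjusted p = 0.0962), CDT1 without untreated replicate 1 (-0.23) or osimertinib replicate 2 (-0.27), ORC5 without untreated replicate 1 (0.25) or osimertinib replicate 1 (0.23) and relative to its neighbours (0.17), RRM2 without untreated replicate 1 (-0.25) or osimertinib replicate 2 (-0.26) and on summed counts (-0.15 to -0.16), and MCM3, RPA3, MCM6 and RFC5 in 4, 8, 9 and 12 settings, with MCM6 at 0.10 without untreated replicate 2.

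**Figure D4:**
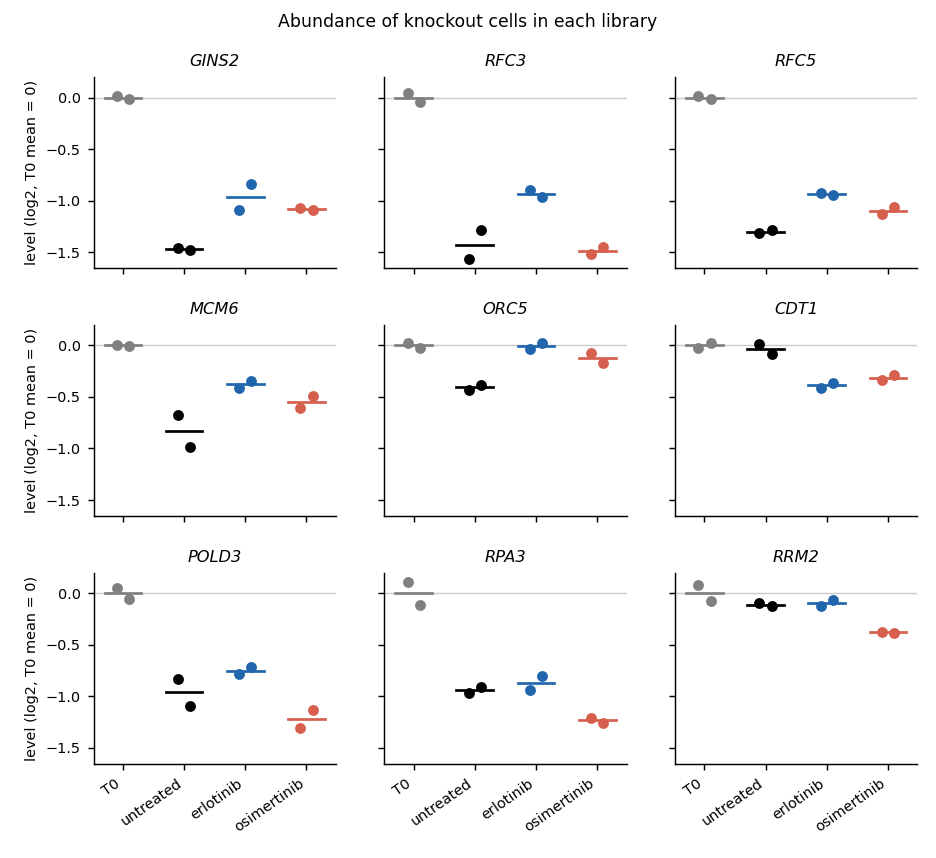
Levels of 9 replication gene knockouts in each of the 8 libraries (y axis, log2, relative to non-targeting guides and to the T0 mean) by group (x axis). Points are libraries and bars are the means of 2 libraries. RFC3, POLD3, RPA3 and RRM2 lie higher under erlotinib than under osimertinib, ORC5 lies near 0 under both drugs, and CDT1 is near 0 in untreated cells and below it under both drugs.

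The drugs were also compared directly, at doses that differ (10 µM erlotinib and 0.1 µM osimertinib). Knockouts of 4 members were more abundant under erlotinib (RFC3, POLD3, RPA3 and RRM2), where 1.13% of all genes tested were called higher, and 0 were less abundant, where 0.242% were called lower. At an unadjusted p under 0.05, 13 members were higher and 0 lower under limma, where 2336 of 17760 genes passed in either direction. On summed counts 0 members were called lower with edgeR, against 1.01% (non-targeting scaling) and 1.41% (TMM) of all genes. DESeq2 also called 0 lower, against 0.721% of all genes. For RFC3 the levels of -0.90 and -0.96 under erlotinib stood against -1.52 and -1.45 under osimertinib (L2FC 0.55 ± 0.081 SE, limma adjusted p = 0.0023), and this call passed in all 18 alternative settings. All 4 guides of RFC3 were higher under erlotinib, at 0.30, 0.69, 0.43 and 0.61, although none passed the edgeR test on its own. The osimertinib levels of RFC3 lay within the range of its untreated levels.

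POLD3, an accessory subunit of polymerase delta, had levels of -0.78 and -0.72 under erlotinib and -1.30 and -1.13 under osimertinib (L2FC 0.47 ± 0.085 SE, limma adjusted p = 0.00941). Its untreated levels of -0.83 and -1.09 lay between those of the drugs, and against untreated cells neither drug passed the threshold (0.21, adjusted p = 0.159 for erlotinib, and -0.26, adjusted p = 0.0655 for osimertinib). The 1st guide of POLD3 fell from 316 and 284 reads in untreated cells to 155 and 237 under osimertinib (guide L2FC -0.68, edgeR adjusted p = 0.00982), while its 2nd guide rose under erlotinib (0.70, edgeR adjusted p = 0.0133). RPA3 was at 0.36 ± 0.077 (limma adjusted p = 0.0265), a difference that became -0.026 to -0.020 on summed counts, and RRM2 at 0.29 ± 0.068 (adjusted p = 0.0419). Without erlotinib replicate 1 the difference of POLD3 was 0.51 (adjusted p = 0.0545) and without erlotinib replicate 2 it was 0.42 (adjusted p = 0.122), while RPA3 and RRM2 lost their calls in 7 and 13 of 18 settings.

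Finally, each drug was set against T0, which the study calls conditional essentiality. Knockouts of 45 of the 51 members fell from T0 to erlotinib and of 47 from T0 to osimertinib, where 41% and 43.9% of all genes tested were called lower. In both comparisons 0 members rose, where 0.304% and 1.03% of all genes were called higher. At an unadjusted p under 0.05 the members counted 47 lower and 0 higher for erlotinib and 48 lower and 0 higher for osimertinib. Of all 17760 genes, 9071 and 9387 passed that threshold in either direction. On summed counts edgeR with TMM called 1 member higher for erlotinib and 0 for osimertinib, against 7.43% and 14.9% of all genes. DESeq2 called 0 in both, against 5.16% and 11.2%. The median L2FC of the members was -0.53 ± 0.28 (SD between genes) for erlotinib and -0.62 ± 0.33 for osimertinib, against -0.15 for all genes in both. Relative to all genes, 34 and 37 members were called lower, against 10.7% and 15.4% of all genes. Both comparisons share their T0 libraries with the comparison of untreated cells.

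The lowest members in erlotinib cells against T0 were MCM5 (-0.995), CDC45 (-0.995), MCM4 (-0.99), TIMELESS (-0.99) and GINS2 (-0.97). In osimertinib cells they were RFC3 (-1.49), RPA3 (-1.23), POLD3 (-1.22), CDC45 (-1.18) and RFC5 (-1.10). The place of RPA3 rests on the median of its guides, since on summed counts it was at -0.16 with both edgeR and TMM (adjusted p = 0.188) and DESeq2 (adjusted p = 0.232) for osimertinib, and at -0.19 with both (adjusted p = 0.163 and 0.215) for erlotinib. CDC45, which joins the MCM ring and GINS in the active helicase, had levels of -1.06 and -1.19 in untreated cells, -1.02 and -0.97 under erlotinib and -1.17 and -1.19 under osimertinib, so that the 3 arms lay close to each other. TIMELESS, which stabilises forks together with TIPIN, had levels between -1.09 and -0.94 in all 6 libraries after T0. By the median of its guides and relative to non-targeting guides, GINS2 was at 36.1% of its T0 abundance in untreated cells, at 51.1% under erlotinib and at 47.1% under osimertinib. RFC3 was at 37.2%, 52.4% and 35.7%. The 4th guide of GINS2 stayed near 0 in these arms (guide L2FC -0.15, -0.034 and -0.19).

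Of the 7 members that were not called in untreated cells, CDT1 fell from T0 by 0.39 under erlotinib (adjusted p = 0.000187) and by 0.31 under osimertinib (adjusted p = 0.000921). Its guides disagreed, at -0.061, 0.070, -1.03 and -0.76 under erlotinib and at 0.085, -0.21, -1.07 and -0.77 under osimertinib. Only the 4th guide passed the edgeR test, under both drugs. FEN1 fell from T0 by 0.30 under erlotinib and by 0.25 under osimertinib, and POLD1 by 0.24 and by 0.21. RFC1, which showed no loss without drug, fell from T0 by 0.19 under erlotinib, narrowly past the threshold (adjusted p = 0.0473), and was at -0.11 under osimertinib (adjusted p = 0.217). RRM2 fell by 0.38 under osimertinib (adjusted p = 0.000238) and was at -0.091 under erlotinib (adjusted p = 0.28). LIG1, with levels of -0.22 in both osimertinib libraries, fell by 0.22 under osimertinib and was at -0.08 under erlotinib (adjusted p = 0.299), and their difference did not pass the test (0.14, adjusted p = 0.344). Against T0, the up to 10 tested genes on each side of FEN1 had medians of -0.28 under erlotinib and -0.33 under osimertinib. Those around POLD1 were at -0.20 and -0.27, and those around CDT1 at -0.15 and -0.14. Neighbours of LIG1 and RRM2 were at -0.28 and 0.012 under osimertinib, and those of RFC1 at -0.13 under erlotinib. FEN1, POLD1 and LIG1 were thus lost little more than their neighbours, or less. ORC5, ORC4, RFC1 and CLSPN were the members that did not fall from T0 to osimertinib, at -0.12, -0.039, -0.11 and -0.16, and are named here after their values were seen.

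Of the 55 further replication genes, 10 rose and 3 fell under erlotinib against untreated cells, and 9 rose and 2 fell under osimertinib. The shares that rose were 18.2% and 16.4%, against 4.88% and 5.31% of all genes, and the shares that fell were 5.45% and 3.64%, against 2.25% and 4.83%. The largest were the topoisomerase TOP1 (0.72 under erlotinib and 0.45 under osimertinib) and the thymidylate kinase DTYMK (0.68 and 0.55), both of which had fallen in untreated cells against T0. The checkpoint kinase WEE1, which holds back CDK1, was the 1 gene of this list that rose without drug (0.18, adjusted p = 0.0372) and fell under erlotinib (-0.48) and osimertinib (-0.53). SSRP1 (0.48 and 0.38) and the checkpoint clamp subunit RAD1 (0.44 and 0.38) also rose under each drug, as did NASP, a histone chaperone, under erlotinib (0.40) and DCTPP1, which cleaves dCTP, under osimertinib (0.35). NASP and DCTPP1 each lost the call in 4 of 18 alternative settings, DCTPP1 being at 0.033 relative to its neighbours and at 0.20 without osimertinib replicate 2, and SSRP1 lost its call under osimertinib in 5.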

How the data were processed

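Values as deposited are raw read counts of single guides, 1 column per library, without normalization. Per the labels and methods, guides were amplified from genomic DNA in 2 PCRs, trimmed, and mapped to the TKOv3 library, for which the methods name Bowtie2 while the submitters' processing notes give Bowtie 1.3.1. Molecular identifiers are not mentioned. The columns were grouped by GEO's labels.

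The lowest 5% of guides by mean normalized count (under 45.9) were left out, as in the methods, leaving 67527 of 71090 guides, 138 non-targeting. Counts became log2 CPM (TMM, prior count 1), each guide was centred on its own mean over libraries, and the median over a gene's guides (at least 2) was set against the median non-targeting guide. This table was fitted with limma 3.58.1 (R 4.3.3) over 4 groups, giving 4 residual and 13.18 prior degrees of freedom, two-sided, with Benjamini-Hochberg adjustment over genes. Guides were tested with edgeR 4.0.16 (quasi-likelihood, TMM) and summed counts also with DESeq2 1.42.0. The empirical p of the methods, drawn from non-targeting guides, was not used, since conditions were compared over libraries. Scripts were tested on simulated data. Of 50 gene names turned into amounts of money, 3 could not be restored. Both libraries of each group differed beyond counting noise (chi-square per degree of freedom 2.71 to 5.18).

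The members and lists were chosen with earlier results of these data known. Genes named were, for each comparison, up to 12 called members per direction by size, members not called in untreated cells, the lowest and highest of each role, the 5 with the largest SD between guides, and up to 6 further replication genes. Alternatives changed the reference, filter, collapse, prior count, test, replicate block, chromosomal neighbours and each library. A further replication gene is not reported here.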

Additional observations from a re-analysis of the deposited data

Results flagged for a closer look

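In 4 members the effects of the drugs differed from each other in a test of the difference itself (erlotinib versus osimertinib, limma, 2 libraries per group, both effects taken against the same untreated libraries). For RFC3 the difference was 0.55, from 0.50 under erlotinib and -0.058 under osimertinib. For POLD3 it was 0.47, from 0.21 and -0.26, with the untreated level in between. For RPA3 it was 0.36, from 0.072 and -0.29, and for RRM2 0.29, from 0.021 and -0.27. In all 4 genes both erlotinib libraries lay above both osimertinib libraries. The difference of RFC3 passed in all 18 alternative settings and that of POLD3 in 16, while that of RPA3 passed in 11 and turned sign in 3 (-0.026 to -0.020 on summed counts), that of RRM2 passed in 5, and DESeq2 called 2 members. The doses of the drugs differ.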

How the results depend on the processing

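Depth and 2 libraries per group limit these values: with 4 residual degrees of freedom, the narrow calls under drug depend on single libraries, as given above. Loss relative to non-targeting guides is shared by most genes, and other references reduce it.

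For untreated versus T0, the members' median was -0.44 against all genes, -0.49 against olfactory receptor guides, -0.39 on summed counts with edgeR and TMM, -0.39 with DESeq2 and -0.46 relative to chromosomal neighbours. For erlotinib versus T0 these medians were -0.38, -0.40, -0.30, -0.31 and -0.35, with 1 member called higher by edgeR with TMM, against 7.43% of all genes. For osimertinib versus T0 they were -0.46, -0.50, -0.39, -0.39 and -0.41, with -0.55 for edgeR scaled on non-targeting guides. For erlotinib versus untreated, edgeR with non-targeting scaling and DESeq2 called 0 members lower, against 3.82% and 3.55% of all genes. For osimertinib versus untreated, 3 of the 51 members were called higher without the filter and 2 relative to neighbours, against 4.81% and 2.27% of all genes. For erlotinib versus osimertinib, DESeq2 called 2 higher, against 1.23% of all genes. At the guide level DESeq2 called 7 guides higher under erlotinib and 3 under osimertinib, counts that were not set against all guides. Relative to its neighbours CLSPN was at 0.13 in untreated versus T0. On summed counts RPA3 was at 0.034, 0.023 and 0.023 for osimertinib versus untreated and at -0.020, -0.026 and -0.024 for erlotinib versus osimertinib. Why these values moved was not tested, apart from the sum giving most weight to the abundant guide of RPA3.

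Leaving out each library in turn, untreated versus T0 had 40 to 45 members lower and 0 higher (median -0.62 to -0.54), erlotinib versus untreated 0 to 1 lower and 6 to 13 higher (0.071 to 0.14), osimertinib versus untreated 0 to 4 lower and 2 to 5 higher (-0.023 to 0.035), erlotinib versus T0 38 to 45 lower and 0 higher (-0.59 to -0.47), osimertinib versus T0 41 to 47 lower and 0 higher (-0.69 to -0.60), and erlotinib versus osimertinib 0 lower and 1 to 3 higher (0.059 to 0.12). Guides ranged from 60 to 98 lower and 0 to 3 higher in untreated versus T0, 0 to 1 lower and 4 to 18 higher under erlotinib, and 0 to 5 lower and 0 to 7 higher under osimertinib.

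Over all genes, the count called lower in untreated versus T0 was 8216 in the fit reported, 1773 against all genes, 2406 against olfactory receptors, 2123 with edgeR and TMM, 1903 with DESeq2 and 1319 of 16442 relative to neighbours, and that of higher calls 6, 242, 80, 905, 519 and 150. Lower calls thus went from 99.9% to 88%, 96.8%, 70.1%, 78.6% and 89.8% of calls. For erlotinib versus T0, 7280 became 1907, 2133, 2371, 2045 and 1308 (99.3% of calls becoming 78.3%, 85.7%, 64.2%, 69% and 86.5%), and for osimertinib versus T0, 7789 became 2738, 3321, 3302, 2959 and 1660 (97.7% becoming 66.6%, 80%, 55.6%, 59.8% and 78.3%). For erlotinib versus untreated, higher calls were 68.5% of calls, and 54.6% with edgeR and TMM and 58.5% with DESeq2. The labels do not say whether replicate numbers pair the libraries. Deviations from group means correlated between groups with r from -0.00355 to 0.0164, which cannot settle it, since noise of single libraries could hide a shared infection. With the replicate block, 89 guides were called lower in untreated versus T0 and 13 higher under erlotinib, and of the named calls ORC6 under erlotinib (0.23, adjusted p = 0.0545) and RFC5 under osimertinib (0.20, adjusted p = 0.0562) were lost.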
